A study of Homo sapiens with 8 samples.

Results

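The 35 genes described here encode, for a large part, the enzymes and transporters that carry glucose to pyruvate and lactate. The genes also cover the pyruvate dehydrogenase step, which turns pyruvate into acetyl-CoA in the mitochondrion, and 3 enzymes of the pentose phosphate pathway. They were taken by symbol from a list of such enzymes, and all 35 were found among the 57992 genes of the count table. The study measured mRNA in 2 human acute myeloid leukaemia lines, each given a compound named dG in the labels, at 10 mM, or PBS as the vehicle. KG1A is an immature leukaemic line known for its surface CD34. U937 is a line of monoblast character. The groups were KG1A in dG, KG1A in PBS, U937 in dG and U937 in PBS, with 2 libraries each and 8 in all. Every culture grew in RPMI medium with dialyzed serum, and the labels do not give the time in dG. Each line is a long-established culture and stands for no more than itself. The title of the study names the disturbance of deoxynucleotide pools and the release of a block in maturation as its subject.

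Glycolysis splits glucose into pyruvate and yields ATP without oxygen. Its early steps spend ATP and are controlled by hexokinase and phosphofructokinase, the middle steps rearrange and split the sugar, and the late steps return ATP and leave pyruvate, which lactate dehydrogenase turns into lactate. Pyruvate dehydrogenase instead turns pyruvate into acetyl-CoA within the mitochondrion and is shut by its kinases, the PDK enzymes. The pentose phosphate pathway branches off after hexokinase, yields NADPH in its oxidative arm and supplies ribose phosphate for nucleotides. Several steps have more than 1 gene, and leukaemic cells are known for a high rate of glycolysis.

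The libraries held 21053724 to 31135338 counts, and the 35 genes took up 0.8575 to 1.924% of them. Replicates had correlations of log2 CPM of at least 0.9951 over genes and differed by more than counting noise, with a chi-square of 1.8 to 2.21 per gene. No label says that replicates came from separate cultures, so the p-values reflect the spread between libraries, which may be technical. The spread used for each gene was moderated across genes, with a median prior of 31 degrees of freedom beside the 4 residual ones. The p-values and standard errors thus do not rest on each gene's own replicates alone. CD34 set the lines apart as labelled, with 21501 to 33602 counts in the KG1A libraries and 7 to 16 in those of U937. Of the other markers of immature cells, KIT (25 to 38 counts) and PROM1 (14 to 110) were low in KG1A. CD38 went the other way, at 1320 and 933 counts in U937 in PBS, against 263 and 308 in KG1A in PBS. The myeloid markers SPI1 (6 to 17 counts) and CD33 (1 to 23) were nearly absent from KG1A, while ANPEP was present in both lines. The granule genes LYZ, ELANE, PRTN3, AZU1, CTSG and MPO together had 24437 to 44454 counts in U937 and 5 to 47 in KG1A, although MPO and CD14 were near 0 in U937. Those counts in KG1A were 47 and 25 in dG and 5 and 10 in PBS, against which no result was tested. In dG they were mostly CTSG (42 and 22 counts, against 4 and 5 in PBS), which was called higher in KG1A, with a log2 fold change of 2.78. Of the markers of other cell types, HBA1, HBB, EPCAM, KRT18 and MS4A1 were at 0 in all 8 libraries, while CD3E had 242 to 613 counts in KG1A and PECAM1 was present in both lines. The summed counts of the 12 such markers were 2769 and 2348 in KG1A in dG, against 1571 and 1953 in PBS, and 3923 and 3391 in U937 in dG, against 2929 and 2273 in PBS. These sums were mostly PECAM1, and their part in any result was not tested.

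The lines answered dG in different ways. In KG1A, 17 of the 35 genes rose, 6 fell and 12 did not pass the test, with a median log2 fold change of 0.15. In U937, 8 rose, 25 fell and 2 did not pass, with a median of -0.51. Calls are adjusted p-values under 0.05 from edgeR's quasi-likelihood F test, adjusted by Benjamini-Hochberg over 18314 genes, and each log2 fold change is given ± its standard error. Of all genes tested, 49.1% were called in KG1A, 29.6% as higher and 19.6% as lower, with a median of 0.04. That split depends on the scaling, with 5413 genes higher and 3581 lower under TMM factors, and 4584 higher and 4435 lower under library size alone. In U937, 64.0% of all genes were called, 32.4% as higher and 31.5% as lower, with a median of 0. The members' count of falls in U937 thus stood well above the background share, and their count of falls in KG1A, 6 of 35, lay near it. The list was chosen with results of these data known. In U937 the members' share of all counts was 1.102 and 1.09% in dG, against 1.911 and 1.924% in PBS. In KG1A it was 0.9233 and 0.8817% in dG, against 0.8575 and 0.8814% in PBS. RNA from cultures cannot tell fewer cells of a kind from less RNA per cell.

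Side by side, 14 genes rose in KG1A and fell in U937, 5 fell in both lines, and SLC2A3, PFKFB3 and ENO2 rose in both. TKT fell in KG1A and rose in U937. A further 6 fell in U937 and 4 rose there without passing in KG1A, and PFKM and PFKFB2 passed in neither line. The share of all genes with each of these joint patterns was not computed, so the counts describe the members only.

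**Figure D1:**
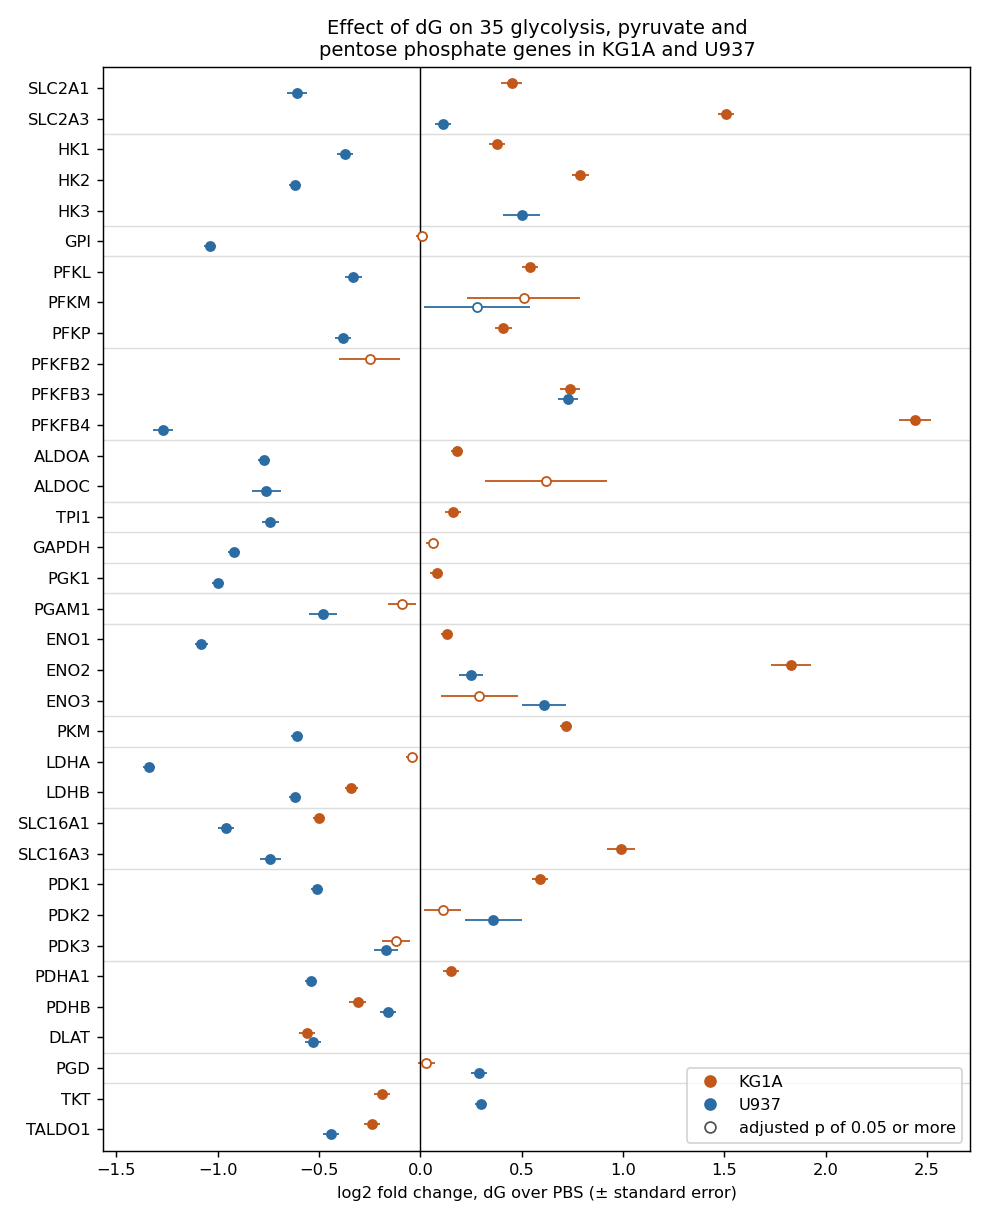
Log2 fold change of dG over PBS with its standard error (x axis) for each gene, ordered by step and separated by grey lines, in KG1A (orange) and U937 (blue). Open circles did not pass the test, and HK3 in KG1A and PFKFB2 in U937 are left out for too few reads. Most blue points lie left of 0, most orange ones at or right of it, and PFKFB3 lies at the same place in both lines.

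Glucose enters through the facilitative carriers SLC2A1 (GLUT1), the widespread form, and SLC2A3 (GLUT3), a form of high affinity. Levels are given as RPKM, reads per kilobase of exon and per scaled library size, so that genes can be compared per length. SLC2A3 (chr12:7919230-7936275, GRCh38) stood at 28.0 and 28.7 RPKM in KG1A in dG, against 9.89 and 10.1 RPKM in PBS. In U937 it stood at 28.9 and 29 RPKM in dG, against 27.2 and 26.4 RPKM in PBS. KG1A in dG thus stood near the U937 level, and in both lines the groups did not overlap. Its log2 fold change was 1.51 ± 0.04 in KG1A (adjusted p = 1.2e-26) and 0.11 ± 0.04 in U937 (adjusted p = 0.00777). The U937 call is lost without U937 PBS replicate 2 (0.08, adjusted p = 0.131) and with library size alone as scaling (0.04, adjusted p = 0.371). SLC2A1 rose by 0.45 ± 0.05 in KG1A and fell by 0.61 ± 0.05 in U937. Summed over both carriers, KG1A had 42.3 RPKM in dG and 20.1 RPKM in PBS, a ratio of 2.1, and U937 had 37.9 RPKM in dG and 40.4 RPKM in PBS, a ratio of 0.937. SLC2A3 made up 67.2% of this sum in KG1A in dG, against 49.6% in PBS, and 76.4% in U937 in dG, against 66.3% in PBS.

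Hexokinase traps glucose as glucose 6-phosphate. HK1 is the housekeeping form, HK2 the inducible form common in tumours, and HK3 a form of myeloid cells. HK2 (chr2:74833981-74893359) was at 37.1 and 36.4 RPKM in KG1A in dG, against 22.1 and 20.5 RPKM in PBS, a log2 fold change of 0.79 ± 0.04 (adjusted p = 1.57e-19). U937 had 46.4 and 45.6 RPKM in dG, against 71.1 and 69.9 RPKM in PBS, a fall of 0.62 ± 0.03 on the log2 scale (adjusted p = 4.45e-18). The libraries of each line separated fully, in opposite directions. HK1 moved the same way as HK2 and less far, rising by 0.38 ± 0.04 in KG1A and falling by 0.37 ± 0.04 in U937. HK3 had no read in any KG1A library, where 0 allows up to 3 counts a library, and 512 and 393 counts in U937 in dG, against 424 and 405 in PBS. After scaling for depth it rose in U937 by 0.50 ± 0.09 (adjusted p = 2.26e-05), with levels of 4.04 to 6.71 RPKM over the 4 libraries. Its share of U937 hexokinase mRNA was 7.91% in dG and 4.08% in PBS.

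GPI, which turns glucose 6-phosphate into fructose 6-phosphate, and the phosphofructokinases, which commit it to glycolysis, differed between the lines. GPI (chr19:34359480-34402156) was at 42.8 and 40.3 RPKM in KG1A in dG, against 41.0 and 41.8 RPKM in PBS, so that the groups overlapped (0.01 ± 0.03, adjusted p = 0.90). In U937 it was at 68.1 and 65.4 RPKM in dG, against 137 and 137 RPKM in PBS, a fall of 1.04 ± 0.03. The phosphofructokinase subunits PFKL (liver type) and PFKP (platelet type) rose in KG1A by 0.54 ± 0.04 and 0.41 ± 0.04, and fell in U937 by 0.33 ± 0.04 and 0.38 ± 0.04. PFKM, the muscle subunit, had 20 to 35 counts a library and passed in neither line. PFKP held most of the summed level, with 70.4% in dG and 72.3% in PBS in KG1A and 64.4% in dG and 65.2% in PBS in U937.

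The PFKFB enzymes make and break fructose 2,6-bisphosphate, the allosteric activator of phosphofructokinase, and gave the largest contrast between the lines among the members with reads. PFKFB4 (chr3:48517684-48562015) was at 4.54 and 4.38 RPKM in KG1A in dG, against 0.859 and 0.795 RPKM in PBS. U937 had 7.98 and 7.94 RPKM in dG, against 18.9 and 19.4 RPKM in PBS. The change was 2.44 ± 0.08 in KG1A (adjusted p = 3.19e-23) and -1.27 ± 0.05 in U937 (adjusted p = 3.5e-23). PFKFB3 (chr10:6144934-6235545), the form with the highest ratio of kinase to phosphatase activity, was at 13.3 and 12.4 RPKM in KG1A in dG, against 7.67 and 7.73 RPKM in PBS. U937 had 18.2 and 19.0 RPKM in dG, against 11.6 and 10.8 RPKM in PBS. Its log2 fold change was 0.74 ± 0.05 in KG1A and 0.73 ± 0.05 in U937. PFKFB2, known from heart and kidney, had 98 and 111 counts in KG1A in dG and 117 and 128 in PBS (-0.25 ± 0.15, adjusted p = 0.194), and 1 or 2 counts in each U937 library. The makeup of the step moved in opposite directions in the 2 lines. PFKFB4 held 25.2% of the summed level in KG1A in dG and 9.20% in PBS, and 29.9% in U937 in dG and 63.0% in PBS. PFKFB3 was the leading form of U937 in dG, at 70.0%, and PFKFB4 was the leading form in PBS. With 2 libraries against 2, no exact permutation test of a share can go below a two-sided p of 0.333, so shares are described without a test.

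**Figure D2:**
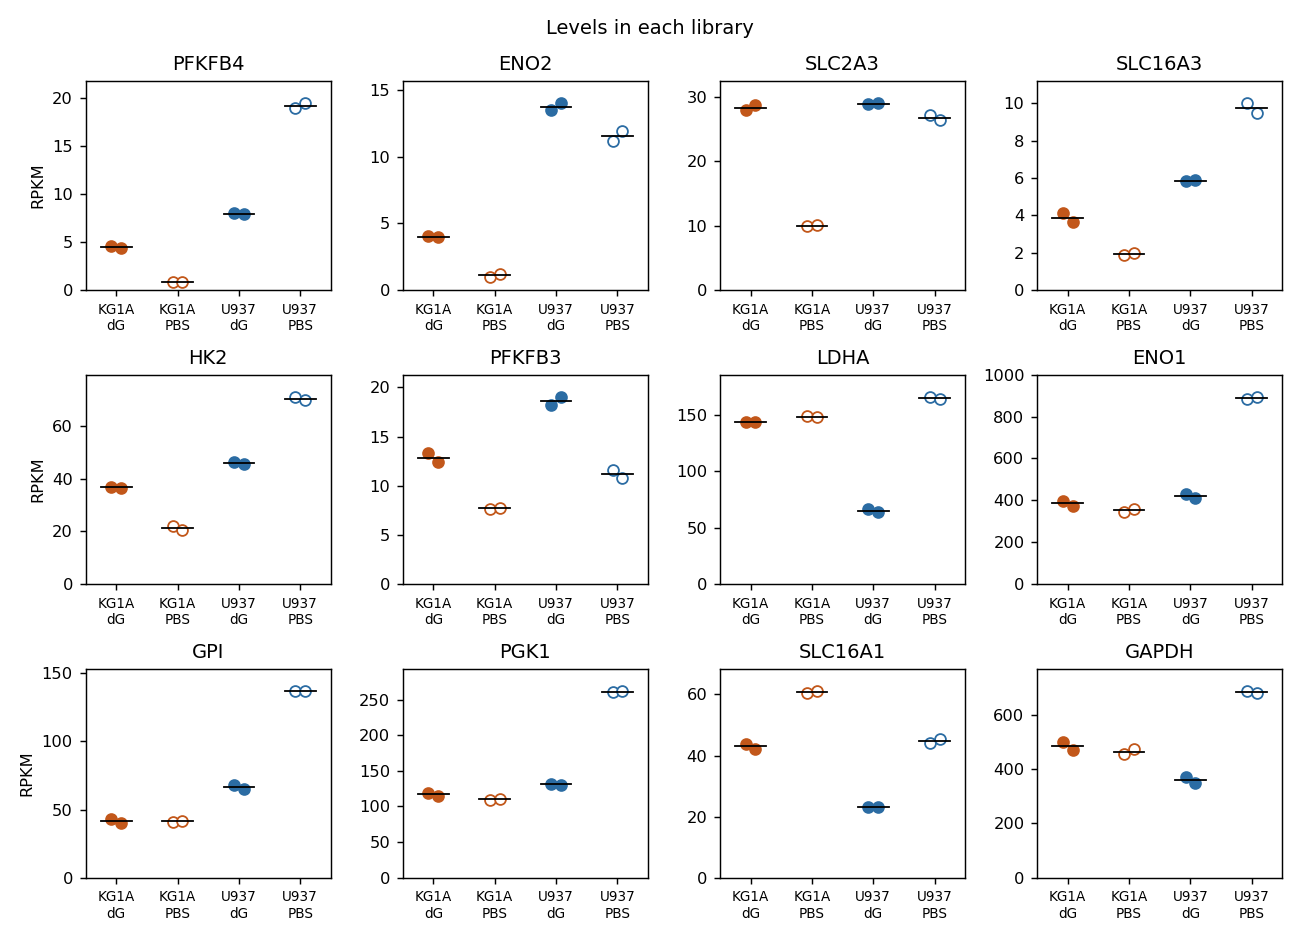
RPKM (y axis, from 0) in each library for 12 genes, by line and treatment (x axis). Filled points are dG, open points are PBS, orange is KG1A, blue is U937 and the bars are means of 2 libraries. PFKFB4, HK2 and SLC16A3 are higher in dG in KG1A and lower in dG in U937, PFKFB3 is higher in dG in both, and LDHA, ENO1, GPI, PGK1 and GAPDH are lower in dG in U937, where their groups lie far apart.

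From aldolase to pyruvate kinase, the abundant enzymes fell in U937, whereas in KG1A they changed little or rose. Aldolase splits fructose bisphosphate into triose phosphates. ALDOA, its main form, rose by 0.18 ± 0.03 in KG1A and fell by 0.77 ± 0.03 in U937. Its brain-type paralog ALDOC (chr17:28573115-28577264) was at 0.316 and 0.565 RPKM in KG1A in dG, against 0.266 and 0.292 RPKM in PBS, a difference that did not pass (0.62 ± 0.30, adjusted p = 0.0809). Without KG1A dG replicate 1 it would pass (1.00, adjusted p = 0.00686). In U937, ALDOC was at 11.2 and 9.94 RPKM in dG, against 18.2 and 17.7 RPKM in PBS, a fall of 0.76 ± 0.07. TPI1, which interconverts the triose phosphates, rose by 0.16 ± 0.04 in KG1A and fell by 0.74 ± 0.04 in U937.

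GAPDH (chr12:6533927-6538374), the dehydrogenase that is often used as a reference gene, was at 500 and 469 RPKM in KG1A in dG, against 455 and 474 RPKM in PBS. The U937 libraries held 373 and 349 RPKM in dG, against 688 and 682 RPKM in PBS. The KG1A groups overlapped and did not pass (0.06 ± 0.03, adjusted p = 0.125), although GAPDH would pass without KG1A dG replicate 2 (0.11, adjusted p = 0.00844). The fall in U937 was 0.92 ± 0.03 on the log2 scale (adjusted p = 6.18e-24). PGK1 (chrX:78065188-78129296), which makes the first ATP of the pathway, was at 119 and 115 RPKM in KG1A in dG, against 109 and 111 RPKM in PBS (0.08 ± 0.03, adjusted p = 0.0183). Levels in U937 were 132 and 130 RPKM in dG, against 260 and 262 RPKM in PBS (-1.0 ± 0.03, adjusted p = 2.09e-26). PGAM1, the mutase, fell by 0.48 ± 0.07 in U937 and gave -0.09 ± 0.07 in KG1A (adjusted p = 0.298).

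Enolase has 3 genes, of which ENO1 is the widespread form, ENO2 the neuronal form and ENO3 the muscle form. ENO1 (chr1:8861002-8879249) was at 398 and 372 RPKM in KG1A in dG, against 345 and 358 RPKM in PBS, and at 430 and 413 RPKM in U937 in dG, against 886 and 893 RPKM in PBS. It rose by 0.13 ± 0.03 in KG1A (adjusted p = 0.000439) and fell by 1.08 ± 0.03 in U937 (adjusted p = 9.95e-27). ENO2 (chr12:6913745-6923698) was at 4.04 and 3.98 RPKM in KG1A in dG, against 0.982 and 1.24 RPKM in PBS, and at 13.5 and 14.0 RPKM in U937 in dG, against 11.2 and 11.9 RPKM in PBS. It rose in both lines, by 1.83 ± 0.10 in KG1A (adjusted p = 1.73e-17) and by 0.25 ± 0.06 in U937 (adjusted p = 0.000148). ENO3 rose by 0.61 ± 0.11 in U937, and gave 0.29 ± 0.19 in KG1A (adjusted p = 0.215). ENO2 was a small part of enolase, at 1.03% of its summed level in KG1A in dG, against 0.314% in PBS, and 3.14% in U937 in dG, against 1.28% in PBS. PKM, the pyruvate kinase that closes glycolysis, rose by 0.72 ± 0.03 in KG1A (adjusted p = 8.59e-21) and fell by 0.61 ± 0.03 in U937 (adjusted p = 8.86e-20).

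Of the 17 glycolytic enzymes without the PFKFB regulators, 10 rose, none fell and 7 did not pass in KG1A (median 0.29), and 3 rose, 13 fell and 1 did not pass in U937 (median -0.61). The shares over all genes tested were 29.6% higher and 19.6% lower in KG1A, and 32.4% higher and 31.5% lower in U937. In KG1A the smallest rises hang on the scaling or on a library: PGK1 does not pass without KG1A PBS replicate 1 (adjusted p = 0.164), without KG1A dG replicate 1 (0.175) or without U937 dG replicate 1 or 2 (0.707 and 0.711), and ENO1 and TPI1 do not pass without U937 dG replicate 1 or 2 (0.0808 and 0.0804 for ENO1, 0.0506 and 0.0502 for TPI1), nor TPI1 without KG1A dG replicate 1 (0.0811). With library size alone as scaling, PGK1 (0.02, adjusted p = 0.628) and ENO1 (0.07, adjusted p = 0.056) do not pass. On the log2 RPKM scale ALDOA (adjusted p of 0.117 to 0.234), TPI1 (0.231 to 0.39), ENO1 (0.322 to 0.525) and PGK1 (0.737 to 0.883) do not pass. Reads of near-identical copies and of overlapping genes may be divided arbitrarily, since the strand setting and the handling of such reads are not given in the sources used here. The numbered pseudogenes of TPI1 held 45.7% as many counts as the gene, those of GAPDH 20.7% and those of LDHA 16.0%, and 42.3% of the ALDOA exon bases overlap another gene on the same strand.

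Promoters of 3 of these genes are shown as examples and not by rank: LDHA and PGK1 were among the members that fell most in U937, and ENO2 rose in both lines. Each run gives the 250 bases before a start of the gene listed in RefSeq, on the plus strand of GRCh38.p14. For all 3 genes that start lies inside the gene span used for the counts, which begins further upstream. Capitals mark CACGTG, an E-box that MYC and MAX bind, and ACGTG, the core of the hypoxia response element, on either strand (ACGTG lies within every CACGTG). The windows are chr11:18394313-18394562 for LDHA, chrX:78103998-78104247 for PGK1 and chr12:6914330-6914579 for ENO2.
LDHA: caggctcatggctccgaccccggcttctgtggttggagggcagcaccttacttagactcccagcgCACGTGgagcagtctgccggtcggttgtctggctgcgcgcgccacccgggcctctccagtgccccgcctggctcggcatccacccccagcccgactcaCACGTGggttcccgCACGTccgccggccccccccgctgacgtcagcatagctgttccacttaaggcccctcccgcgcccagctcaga
PGK1: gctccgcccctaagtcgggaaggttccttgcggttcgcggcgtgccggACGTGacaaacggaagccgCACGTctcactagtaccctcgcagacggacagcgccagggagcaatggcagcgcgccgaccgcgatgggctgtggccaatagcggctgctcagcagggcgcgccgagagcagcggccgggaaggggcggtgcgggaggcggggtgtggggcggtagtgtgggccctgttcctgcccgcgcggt
ENO2: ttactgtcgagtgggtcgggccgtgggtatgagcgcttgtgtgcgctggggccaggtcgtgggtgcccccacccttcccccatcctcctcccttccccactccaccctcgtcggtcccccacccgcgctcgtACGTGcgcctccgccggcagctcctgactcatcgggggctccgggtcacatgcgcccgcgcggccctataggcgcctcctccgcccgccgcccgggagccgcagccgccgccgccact
LDHA holds CACGTG at 2 places, PGK1 holds ACGTG and no CACGTG, and ENO2 holds ACGTG at 1 place. RefSeq promoters, from 250 bases before to 50 bases after the start, were found for 32 of the 35 genes. CACGTG was present in 4 of the 32 (12.5%), namely ALDOC, GAPDH, LDHA and PDHB, and in 7.43% of 27305 promoters of that length. ACGTG was present in 12 of the 32 (37.5%) and in 21.6% of all. The windows of PFKFB4, ENO1 and PKM held neither. PFKFB4 (-1.27) and ENO1 (-1.08) fell further in U937 than PGK1 (-1.0) on the log2 scale, as did GPI (-1.04), whose window held 1 ACGTG. The 3 windows shown thus do not stand for the members that changed most. These matches describe letters and do not show that a factor binds there.

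Lactate dehydrogenase joins the LDHA subunit, which favours lactate formation, and LDHB. LDHA (chr11:18394388-18408425) was at 144 and 144 RPKM in KG1A in dG, against 149 and 148 RPKM in PBS, a difference of -0.04 ± 0.03 that did not pass (adjusted p = 0.263). In U937 it was at 66.4 and 63.9 RPKM in dG, against 166 and 164 RPKM in PBS, a fall of 1.34 ± 0.03 (adjusted p = 6.36e-30), the furthest fall of any member in that line. In KG1A a small fall of LDHA would pass without the first or the second U937 dG library (-0.11 in each case, adjusted p = 0.00335 and 0.00327) and with library size alone as scaling (-0.11, adjusted p = 0.00137). LDHB fell in both lines, by 0.34 ± 0.03 in KG1A and by 0.62 ± 0.03 in U937. LDHA held 47.8% of the summed level in KG1A in dG and 42.8% in PBS, and 25.6% in U937 in dG and 36.2% in PBS. Another gene overlaps 33.4% of the LDHB exon bases on the same strand.

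Lactate leaves and enters cells through the monocarboxylate carriers SLC16A1 (MCT1) and SLC16A3 (MCT4), of which SLC16A3 is known for lactate export from glycolytic cells. SLC16A1 (chr1:112911847-112957013) was at 43.7 and 42.2 RPKM in KG1A in dG, against 60.6 and 61.1 RPKM in PBS, and at 23.0 and 23.1 RPKM in U937 in dG, against 44.1 and 45.3 RPKM in PBS. It fell in both lines, by 0.50 ± 0.03 in KG1A (adjusted p = 2.78e-15) and by 0.96 ± 0.04 in U937 (adjusted p = 4.32e-23). SLC16A3 (chr17:82228397-82261129) was at 4.13 and 3.64 RPKM in KG1A in dG, against 1.90 and 2.00 RPKM in PBS, and at 5.83 and 5.90 RPKM in U937 in dG, against 10.0 and 9.5 RPKM in PBS. It rose by 0.99 ± 0.07 in KG1A (adjusted p = 7.25e-15) and fell by 0.74 ± 0.05 in U937 (adjusted p = 4.86e-15). The 2 carriers thus moved apart in KG1A, where SLC16A3 held 8.28% of their sum in dG and 3.10% in PBS, and fell together in U937, where it held 20.3% in dG and 17.9% in PBS.

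**Figure D3:**
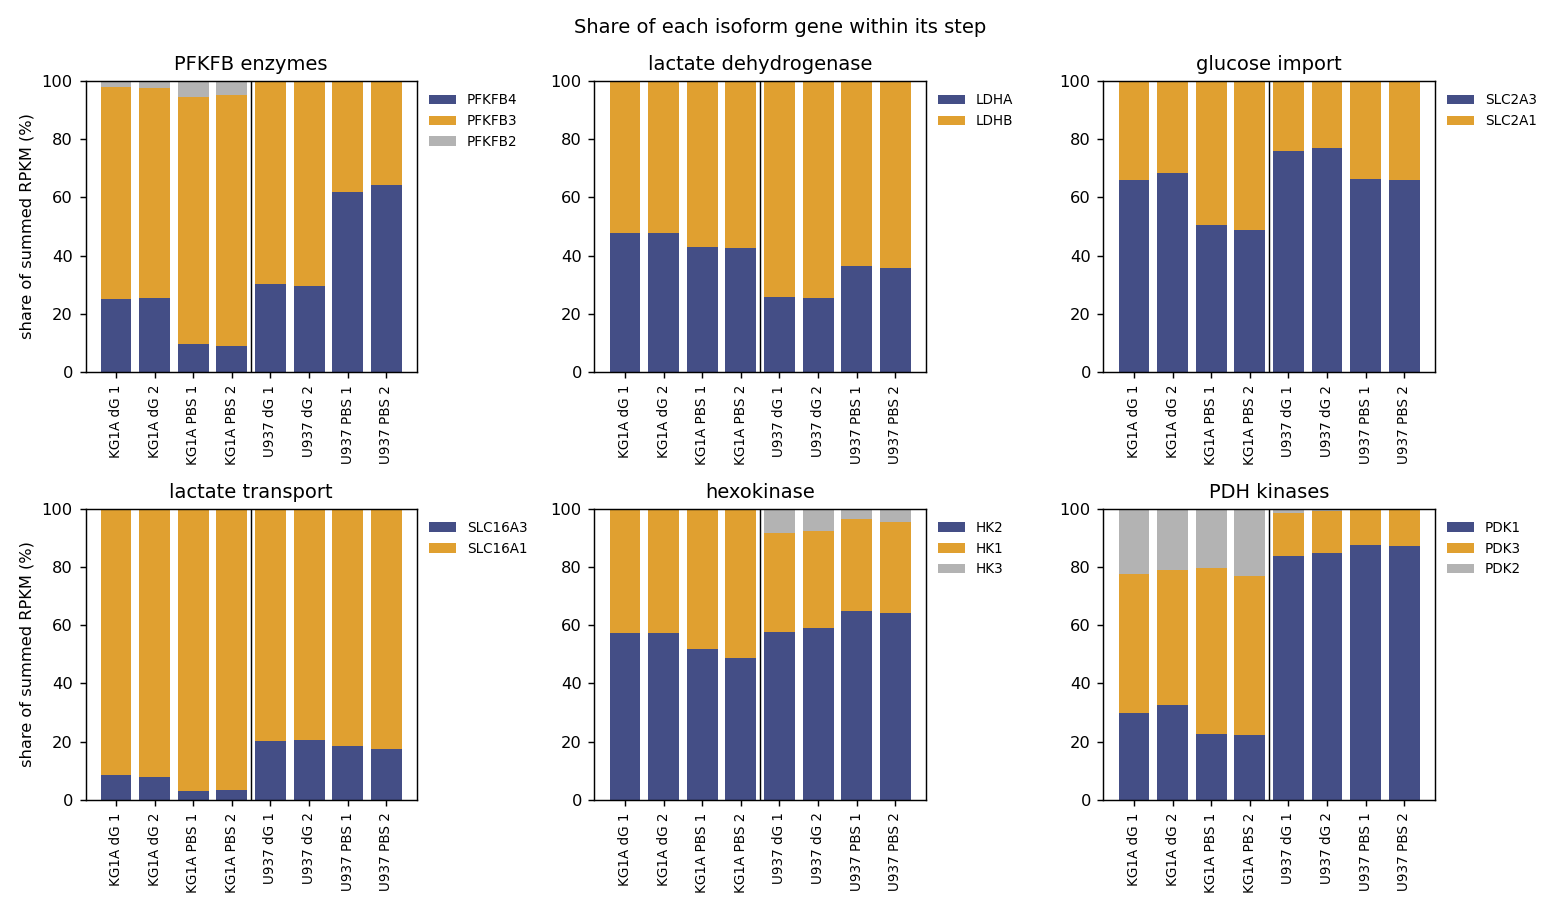
Share of each gene in the summed RPKM of its step (y axis, percent), in each library (x axis), with KG1A left and U937 right of the line. PFKFB4 is 25.2% in dG and 9.20% in PBS in KG1A and 29.9% in dG and 63.0% in PBS in U937, and LDHA is 47.8% in dG and 42.8% in PBS in KG1A and 25.6% in dG and 36.2% in PBS in U937.

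Pyruvate dehydrogenase is built from E1 (PDHA1 and PDHB), E2 (DLAT) and other subunits, and PDK1, PDK2 and PDK3 phosphorylate and inactivate E1. DLAT fell in both lines, by 0.56 ± 0.04 in KG1A (34.1 ± 0.96 RPKM in dG and 50.5 ± 0.99 in PBS, SD, n = 2 each) and by 0.53 ± 0.04 in U937 (17.6 ± 0.13 RPKM in dG and 25.5 ± 0.18 in PBS). PDHB fell by 0.31 ± 0.04 in KG1A and by 0.16 ± 0.04 in U937, where the call ends without either U937 dG library (adjusted p of 0.296 without replicate 1 and 0.056 without replicate 2) or in DESeq2 (0.3). PDHA1 rose by 0.15 ± 0.04 in KG1A and fell by 0.54 ± 0.03 in U937. The KG1A rise of PDHA1 does not pass without either U937 dG library (adjusted p of 0.0916 without replicate 1 and 0.0929 without replicate 2) or with library size alone (0.0556), and MAP3K15 overlaps 21.3% of its exon bases on the opposite strand. PDK1, a kinase that hypoxia is known to induce, rose in KG1A by 0.59 ± 0.04 (5.03 and 5.10 RPKM in dG, against 3.38 and 3.33 in PBS). In U937, PDK1 fell by 0.51 ± 0.03 (91.4 and 96.9 RPKM in dG, against 134 and 134 in PBS), and was far above its KG1A level in dG and in PBS. It made up 31.2% of the kinases' summed level in KG1A in dG, against 22.4% in PBS, and 84.2% in U937 in dG, against 87.4% in PBS. The KG1A shares rest on the exon lengths, since on CPM, without length, PDK1 made up 65.3% in dG and 55.2% in PBS and led the kinases, whereas on RPKM PDK3 led with 47.2% in dG and 55.8% in PBS. The deposited exon length of PDK3 is 2695 bases, against 4951 bases in GENCODE 29.

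PDK2, the most widely expressed kinase, gave 0.11 ± 0.09 in KG1A (adjusted p = 0.343) and rose by 0.36 ± 0.14 in U937 (adjusted p = 0.0251), where the call ends without U937 PBS replicate 1 (0.114), U937 PBS replicate 2 (0.0556) or U937 dG replicate 1 (0.493). SAMD14 overlaps 38.6% of the PDK2 exon bases on the opposite strand. PDK3 gave -0.12 ± 0.07 in KG1A (adjusted p = 0.171), and would pass without KG1A dG replicate 1 (0.0496) or U937 dG replicate 1 or 2 (0.0345 and 0.0339). In U937 it fell by 0.17 ± 0.06 (adjusted p = 0.00835), which ends without U937 dG replicate 1 or 2 (0.143 and 0.296) and in DESeq2 (0.412).

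Of the 3 pentose phosphate enzymes, PGD and TKT rose in U937 and TALDO1 fell. PGD, the NADPH-yielding dehydrogenase of the oxidative arm, was at 54.7 and 50.3 RPKM in KG1A in dG, against 50.6 and 52.1 RPKM in PBS (0.03 ± 0.04, adjusted p = 0.543). In U937 it was at 78.9 and 75.8 RPKM in dG, against 63.1 and 63.2 RPKM in PBS, a rise of 0.29 ± 0.04 (adjusted p = 1.58e-08). TKT, the transketolase of the non-oxidative arm, was at 23.9 and 22.5 RPKM in KG1A in dG, against 26.0 and 26.9 RPKM in PBS, a fall of 0.19 ± 0.04 (adjusted p = 2.57e-05). Levels in U937 were 59.8 and 57.7 RPKM in dG, against 48.5 and 47.0 RPKM in PBS, a rise of 0.30 ± 0.03 (adjusted p = 5.23e-10). TALDO1, the transaldolase that works beside it, fell in both lines, by 0.24 ± 0.04 in KG1A and by 0.44 ± 0.04 in U937. Within the non-oxidative arm TKT held 47.2% of the summed level in U937 in dG, against 34.8% in PBS, and 43.9% in KG1A in dG, against 43.0% in PBS.

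The difference between the lines was tested directly, as the U937 effect minus the KG1A effect. It was negative for 24 of the 35 genes and positive for 3, and 8 did not pass, with a median of -0.79. Over all 18314 genes, 44.1% were called, 26.4% as negative and 17.6% as positive, with a median of -0.10. The scaling moves this background: with DESeq2's size factors 4021 genes were called positive and 3898 negative, against 3230 positive and 4841 negative with TMM. Over all settings tried the median of all genes lay between -0.11 and 0.05, and the members' median minus that of all genes lay between -0.72 and -0.65. PFKFB4 differed most (-3.70 ± 0.10, adjusted p = 6.27e-27), as the U937 effect of -1.27 stood against 2.44 in KG1A. SLC16A3 (-1.73 ± 0.09), ENO2 (-1.58 ± 0.12), HK2 (-1.41 ± 0.05), SLC2A3 (-1.40 ± 0.05) and ALDOC (-1.38 ± 0.30) followed. For ENO2 and SLC2A3 the sign was the same in both lines and the size differed. All 4 transporters and both lactate dehydrogenases were more negative in U937.

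Against this stood genes whose answer was not shown to differ. PFKFB3 gave a difference of -0.01 ± 0.07 (adjusted p = 1) and DLAT one of 0.04 ± 0.05 (adjusted p = 0.659), which does not show that the lines answered alike. PDK2, PDK3, ENO3, HK3, PFKFB2 and PFKM did not pass either. Of these, HK3 had no read in KG1A, PFKFB2 had 1 or 2 counts in each U937 library and PFKM had 20 to 35 counts a library. The positive differences belonged to TKT (0.49 ± 0.05, adjusted p = 1.11e-10), PGD (0.26 ± 0.05, adjusted p = 0.000127) and PDHB (0.15 ± 0.06, adjusted p = 0.0491). PDHB does not pass once any KG1A library or either U937 PBS library is left out (adjusted p of 0.0544 to 0.209). Of the negative ones, PGAM1 ends without U937 dG replicate 1 (0.194) and TALDO1 without U937 dG replicate 1 or 2 (0.149 and 0.761), and in DESeq2 neither passes (0.0987 for PGAM1 and 0.261 for TALDO1). Without U937 dG replicate 2, DLAT (0.17, adjusted p = 0.0312) and PDK2 (0.58, adjusted p = 0.00765) would be called positive, as would DLAT with DESeq2's size factors (0.14, adjusted p = 0.0433), with no filter on low counts (0.16, adjusted p = 0.0317) and in the 3 fits on log2 RPKM (0.16 to 0.17, adjusted p of 0.014 to 0.0216).

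In PBS, U937 held more mRNA for nearly the whole pathway than KG1A. With U937 over KG1A, 29 of the 35 genes were higher, 5 were lower and PFKM did not pass, with a median of 0.95. Of all genes, 82.3% were called, 41.4% as higher and 40.8% as lower, with a median of 0.01. The largest contrasts with reads in both lines were ALDOC (5.99 ± 0.13), PDK1 (5.32 ± 0.04), PFKFB4 (4.54 ± 0.07) and ENO2 (3.36 ± 0.08). Lower in U937 were DLAT (-0.99 ± 0.04), PDK2 (-1.74 ± 0.11), SLC16A1 (-0.44 ± 0.03), PFKFB2, with 1 count in each U937 library in PBS, and PDHB (-0.12 ± 0.04, adjusted p = 0.0104). PDHB alone among these calls ends without a library, at an adjusted p of 0.113 without KG1A PBS replicate 2, 0.0911 without U937 PBS replicate 1 and 0.0633 without U937 PBS replicate 2. LDHA was almost level between the lines, at 166 and 164 RPKM in U937 and 149 and 148 RPKM in KG1A (0.15 ± 0.03).

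By summed RPKM, the levels of the 18 steps in the lines came closer together under dG in 15 cases and moved further apart in 3. The same was not counted over all genes. The ratio of U937 to KG1A was 1.13 in dG and 2.56 in PBS for enolase, 1.26 in dG and 3.16 in PBS for pyruvate kinase, and 1.60 in dG and 3.31 in PBS for phosphoglucose isomerase. It fell below 1 in dG for glucose import (0.896, against 2.01 in PBS), phosphofructokinase (0.879, against 1.54), triose phosphate isomerase (0.914, against 1.71), GAPDH (0.745, against 1.47), lactate dehydrogenase (0.839, against 1.31) and the PDH complex (0.966, against 1.09). PDH kinases stayed furthest apart, at 6.85 in dG and 10.2 in PBS. The 3 steps that moved apart were lactate transport (0.617 in dG and 0.868 in PBS) and the oxidative (1.47 in dG and 1.23 in PBS) and non-oxidative pentose phosphate arms (2.35 in dG and 2.23 in PBS). On counts without length the U937 sum of the last step rose by 0.07 on the log2 scale, against -0.14 with RPKM. The lines moved apart there too. Lactate dehydrogenase rests on the scale. On counts without length its sum changed by -0.97 in U937 and -0.15 in KG1A on the log2 scale, and the lines moved further apart.

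**Figure D4:**
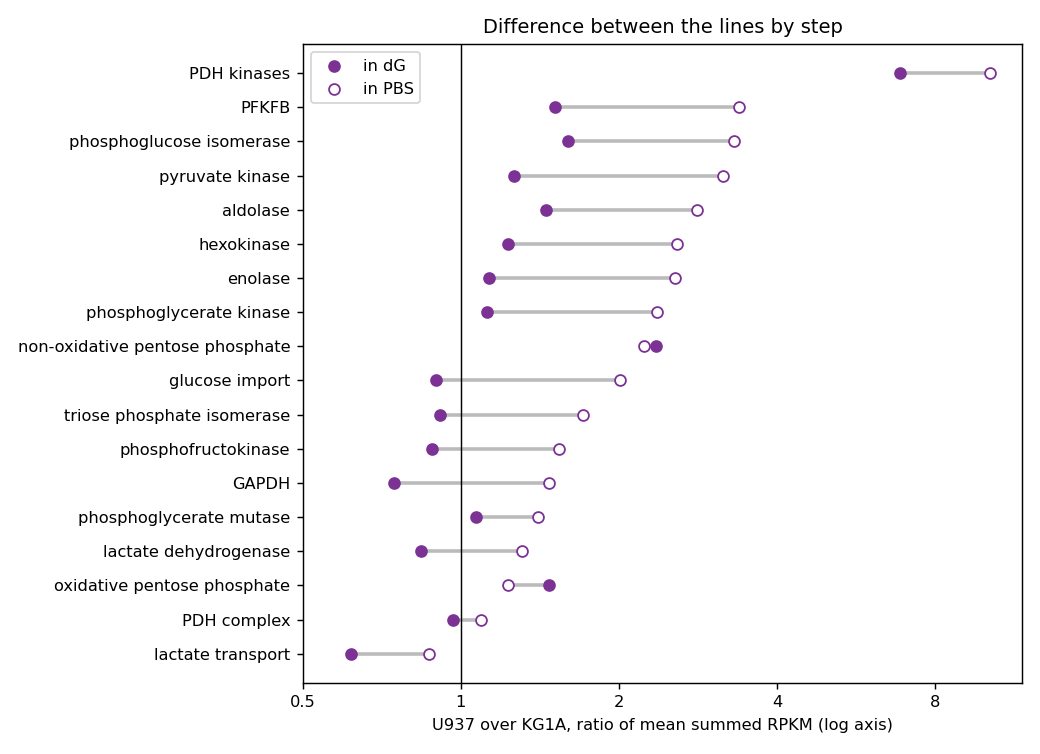
Ratio of U937 to KG1A of the mean summed RPKM of each step (x axis, log scale), in dG (filled) and in PBS (open), with steps down the page in order of the ratio in PBS. In 15 of the 18 steps the filled point lies closer to 1 than the open one, as for enolase with 1.13 in dG and 2.56 in PBS.

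Among 56 other genes of these pathways, chosen by function, 40 had enough reads to test. In KG1A 8 rose, 13 fell and 19 did not pass (median -0.01), and in U937 18 rose, 13 fell and 9 did not pass (median 0.10). Over all genes tested, 29.6% rose and 19.6% fell in KG1A, and 32.4% rose and 31.5% fell in U937. The count of falls in U937 thus lay near the share over all genes. Among those with a mean of at least 1 RPKM in the line, the largest rises in KG1A were GPD2, the mitochondrial glycerol phosphate dehydrogenase (0.78 ± 0.06), the mitochondrial PEP carboxykinase PCK2 (0.60 ± 0.06), ME3 (0.43 ± 0.11) and SLC16A7 (0.36 ± 0.10). Below that level ME1 (2.06 ± 0.33) and SLC2A5 (1.54 ± 0.13) rose further. The largest falls were BPGM, the bisphosphoglycerate mutase (-0.65 ± 0.11), RPIA, the ribose phosphate isomerase (-0.62 ± 0.05), TIGAR (-0.61 ± 0.11) and PGK2 (-0.47 ± 0.07). In U937, at the same minimum, the transketolase-like gene TKTL1 (2.44 ± 0.19), the pyruvate dehydrogenase phosphatase PDP2 (0.88 ± 0.05), the pyruvate carrier subunit MPC2 (0.45 ± 0.04) and H6PD (0.40 ± 0.04) rose most. Below it LDHD (3.05 ± 0.33), PCK1 (1.86 ± 0.35), ALDH2 (1.53 ± 0.22) and FBP1 (0.70 ± 0.30) also rose. RPIA (-1.32 ± 0.06), the malic enzyme ME2 (-0.79 ± 0.04), pyruvate carboxylase PC (-0.71 ± 0.11) and DLD, the E3 subunit of pyruvate dehydrogenase (-0.70 ± 0.04), fell most.

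Regulators that are known to act on glycolytic genes moved too. MYC fell by 0.33 ± 0.03 in KG1A and by 3.51 ± 0.05 in U937, a difference of -3.17 ± 0.06. HIF1A mRNA rose by 0.38 ± 0.04 in KG1A and by 0.64 ± 0.04 in U937. VEGFA, a target of the hypoxia response, rose by 1.11 ± 0.07 in KG1A and by 1.98 ± 0.03 in U937. CA9, another such target, had 6 counts or fewer in each library. The part of these regulators in the changes of the members was not tested.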

How the data were processed

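RNA was sequenced in 8 libraries after a Kapa mRNA library preparation, per the labels' protocols. The submitters' processing notes name bcl2fastq 2.18.0.12, TopHat2, HTSeq 0.11.2 and the build hg38 (GRCh38), without roles. The deposited table gives whole-number read counts per gene, with exon lengths. The deposited RPKM equal counts per kilobase of exon and per library size scaled with edgeR's TMM factors over all genes, as recomputed here. The annotation release and the strand setting are not given in the sources used here.

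Genes were tested with edgeR 4.0.16 under R 4.3.3 (quasi-likelihood F test, two-sided, on the counts as deposited). filterByExpr left 18314 genes, all 8 libraries entered 1 model with a mean per line and treatment and 4 residual degrees of freedom, and Benjamini-Hochberg adjusted p-values, taken over those genes, were called under 0.05. Printed RPKM were computed from the counts with the TMM factors of this fit. The common biological coefficient of variation was 2.51%. The fit was tested on simulated data in which 200 genes changed. It recovered 71 to 91.5% of them, with 5 to 8 false calls. In the data 49.1% of genes were called in KG1A and 64.0% in U937, so the simulation does not test the scaling under such wide change.

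The members and lists were chosen with earlier results of these data known. Values in every library are given for the 6 members per line with the largest change past the threshold and a mean of at least 1 RPKM, the 6 largest differences between lines, and GAPDH. Of other pathway genes, up to 4 per line and direction with a mean of at least 1 RPKM in the line were named, and those below it that rose further were added after their values were seen. The values of PDK1, PGD and TKT in every library were added after they were seen. Exon overlaps come from GENCODE 29.

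Alternatives were DESeq2 1.42.0, its size factors in edgeR, library size alone, no filter, limma-trend (limma 3.58.1) on log2(RPKM + 1) and log2(RPKM + 0.1), a replicate block, each line alone, each library left out, and CPM in place of RPKM for shares and sums. Adding pseudogene counts and crossing the KG1A replicate numbers were chosen after seeing the data. Same-numbered libraries did not deviate together (correlation -0.30 between treatments in KG1A and -0.03 in U937, over 5851 genes). Some genes of the lists are not reported here. Floors of 3 counts cover counting error only.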

Additional observations from a re-analysis of the deposited data

Results flagged for a closer look

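For 27 of the 35 genes the effect of dG differed between U937 and KG1A by the test of that difference (edgeR, adjusted over all 18314 genes), of which 44.1% differed. Values are the U937 effect minus the KG1A effect on the log2 scale, with adjusted p-values of 0.0491 or lower. Among the transporters it was -1.06 for SLC2A1, -1.40 for SLC2A3, -0.46 for SLC16A1 and -1.73 for SLC16A3. From hexokinase to the PFKFB regulators it was -0.75 for HK1, -1.41 for HK2, -1.04 for GPI, -0.87 for PFKL, -0.79 for PFKP and -3.70 for PFKFB4. From aldolase to pyruvate kinase it was -0.96 for ALDOA, -1.38 for ALDOC, -0.90 for TPI1, -0.98 for GAPDH, -1.08 for PGK1, -0.38 for PGAM1, -1.21 for ENO1, -1.58 for ENO2 and -1.32 for PKM. For lactate dehydrogenase it was -1.30 for LDHA and -0.29 for LDHB, and around pyruvate dehydrogenase it was -1.11 for PDK1, -0.69 for PDHA1 and 0.15 for PDHB. In the pentose phosphate pathway it was 0.26 for PGD, 0.49 for TKT and -0.20 for TALDO1. The values of PDHB, PGAM1 and TALDO1 did not pass under every alternative, and no cause was tested for any of these differences.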

How the results depend on the processing

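No called member changed sign under any of the alternatives run. Under all of them 12 of the 17 rises and 6 of the 6 falls in KG1A passed, as did 6 of the 8 rises and 23 of the 25 falls in U937, 2 of the 3 positive and 22 of the 24 negative differences between the lines, and 29 of the 29 higher and 4 of the 5 lower members of U937 against KG1A in PBS. The KG1A rises that did not were ALDOA, TPI1, PGK1, ENO1 and PDHA1. With library size alone 14 members rose and 8 fell in KG1A, and on log2(RPKM + 1) 13 rose and 9 fell, where 4085 of all genes were higher and 4202 lower, against 5413 and 3581 in edgeR. The number of positive differences was 6 on log2(RPKM + 1) and ranged from 2 to 5 when each library was left out. The cause of these shifts was not tested.

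No label says whether same-numbered libraries belong together. Their deviations had correlations of -0.30 in KG1A and -0.03 in U937, which cannot decide whether they were paired. With a replicate block 18 members rose and 6 fell in KG1A, 8 rose and 25 fell in U937, and 2 differences were positive and 24 negative. The block added ALDOC in KG1A (adjusted p = 0.0481) and ended the call of PDHB in the difference (adjusted p = 0.083). With the KG1A numbers crossed, chosen after seeing the data, 17 members rose and 6 fell there.

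Shares and sums weight genes by exon length, and with CPM in place of RPKM some moved beyond the spread of replicates. As dG minus PBS in percentage points, the share was 0.77 for ENO2, 4.75 for LDHA, 8.12 for SLC16A3 and 17.14 for PFKFB4 in KG1A, and 9.13 for SLC2A3, -12.36 for LDHA and -0.83 for PDK1 in U937. Summed levels on the log2 scale gave 1.13 for glucose import, -0.15 for lactate dehydrogenase, -0.37 for lactate transport and 0.35 for the PDH kinases in KG1A. In U937 they gave -0.06 for glucose import, -0.97 for lactate dehydrogenase, -0.89 for lactate transport and -0.24 for the PFKFB enzymes. The sum of TKT and TALDO1 in U937 was 0.07 with CPM, against -0.14 with RPKM. Depth limits PFKM (20 to 35 counts a library) and PFKFB2 in U937 (1 or 2 counts).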

Other observations

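Some genes of the wider pathway set the lines apart more than dG did. PGK2, a retrogene known from testis that codes for a phosphoglycerate kinase, was at 16.3 and 16.0 RPKM in KG1A in dG, against 22.6 and 22.2 RPKM in PBS, and had 2 reads or fewer in each U937 library. The fructose carrier SLC2A5 was at 44.9 and 46.5 RPKM in U937 in dG and 43.5 and 47.0 RPKM in PBS (0.01 ± 0.04), which is above SLC2A3 in the same libraries. In KG1A it was at 1.37 and 1.20 RPKM in dG, against 0.382 and 0.491 RPKM in PBS, a rise of 1.54 ± 0.13 (edgeR, adjusted p = 2.21e-12). TKTL1 had no read in KG1A and 157 and 131 reads in U937 in dG, against 41 and 28 in PBS.

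In U937 PGLS, the lactonase of the oxidative pentose phosphate arm, fell by 0.54 ± 0.07, while PGD of the same arm rose by 0.29 ± 0.04. RPIA, which makes ribose 5-phosphate, fell to 12.7 and 13.2 RPKM in U937 in dG, against 32.8 and 31.5 RPKM in PBS, and to 25.1 and 23.9 RPKM in KG1A in dG, against 36.9 and 38.4 RPKM in PBS. PDHX rose in both lines (0.35 ± 0.05 in KG1A and 0.37 ± 0.05 in U937), whereas DLAT and DLD, other parts of the same complex, fell in both. These genes were picked after their values were seen.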
